A study of Mus musculus with 10 samples.

Results

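The Schlafen family was examined in the mouse infrarenal aorta 7 days after elastase or saline infusion. Its members were the probes whose gene name on the array was Slfn1, Slfn2, Slfn3, Slfn4, Slfn5, Slfn8 or Slfn9, which gave 7 of 35527 gene names and 9 of 55681 probes. The family was chosen by the Slfn4 signal, which was above background on PPE arrays alone, so the difference of Slfn4 between the groups is a description with no test. Slfn8 and Slfn9 had 2 probes each and the other genes 1 probe each, with 1 spot per probe.

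The study profiled the porcine pancreatic elastase (PPE) model of abdominal aortic aneurysm, in which elastase is infused into a temporarily closed segment of the aorta and the wall dilates over the following weeks. All animals were male C57BL/6J mice on a normal diet and 10 weeks old. In 5 mice the segment was perfused for 5 min at 100 mmHg with saline (sham), and in 5 mice with saline that held type I elastase at 1.5 U per mL (PPE). Each array carried 500 ng of RNA from 1 aorta in the red dye (Cy5) against a universal mouse reference RNA in the green dye (Cy3), and dyes were not swapped. The whole segment was taken, so all cell types of the wall and of its infiltrate contributed, and fewer cells of a type cannot be told apart from less RNA per cell. The levels below are log2 ratios of aorta over reference, and the differences are PPE minus sham on that scale.

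Schlafen genes are found in a cluster on mouse chromosome 11 and share an amino-terminal Schlafen core. Short members (Slfn1 and Slfn2) consist mostly of this core, intermediate members (Slfn3 and Slfn4) carry an added stretch, and long members (Slfn5, Slfn8 and Slfn9) end in a helicase-like region. Several are induced by type I interferon in macrophages and other leukocytes, and the family was first described in developing and activated T cells. Type I interferon receptors signal through Janus kinases to transcription factors that bind interferon-stimulated response elements in target promoters.

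The probe coordinates in the files are of build mm9 (NCBI37). On that build the first Schlafen probe, Slfn5 A_66_P128525, lay at chr11:82774907-82774966 on the plus strand and the last, Slfn3 A_51_P228768, at chr11:83028431-83028490 on the plus strand, so the 9 probes spanned 253.6 kb. Between them came Slfn9 A_55_P2110537 at chr11:82793812-82793871 and A_55_P2117649 at chr11:82793914-82793973, Slfn8 A_55_P2117656 at chr11:82815804-82815863 and A_66_P105585 at chr11:82830985-82831044, all on the minus strand. Slfn2 A_51_P423578 at chr11:82883791-82883850, Slfn1 A_52_P425890 at chr11:82935656-82935715 and Slfn4 A_51_P183812 at chr11:83002974-83003033 lay on the plus strand. The files give no exon or untranslated region for these probes.

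Close paralogs can share a probe's letters, so the 60-base probes were compared with each other. The longest run that probes of different members shared was 19 bases, between Slfn8 A_55_P2117656 and Slfn9 A_55_P2117649, and for every other pair of members with different names it was at most 9 bases. Aligned without gaps, Slfn8 A_55_P2117656 and Slfn9 A_55_P2117649 matched at 36 of 48 bases. The part of this likeness in their levels was not tested. The shared run is in capitals in these 30-base stretches, written as the scanner files give the probes.

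Slfn8 A_55_P2117656, bases 11 to 40: aataatTCCCTTAAAGAAATACAGGgacag

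Slfn9 A_55_P2117649, bases 23 to 52: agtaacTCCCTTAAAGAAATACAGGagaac

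The probes were also searched against RefSeq promoters of other genes. Both Slfn9 probes shared a run of 20 or more bases with such promoters, up to 30 bases for A_55_P2110537 and 23 bases for A_55_P2117649, among them the promoters of Smn1 and Gm45086. None of the other 7 Schlafen probes did, their longest runs being 14 to 18 bases, and 2.98% of all probes on the array shared such a run. The first 20 shared bases are in capitals here, since the Slfn9 values are read beside them.

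Slfn9 A_55_P2110537, bases 3 to 32: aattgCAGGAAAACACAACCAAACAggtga

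Slfn9 A_55_P2117649, bases 27 to 56: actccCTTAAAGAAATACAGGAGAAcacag

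The core of an interferon-stimulated response element, GAAA and a second GAAA with any 2 bases between them, was searched on both strands of RefSeq promoters of build GRCm38.p6, from 250 bases before to 50 bases after each start. It was found in promoters of 3 of the 7 genes, the long members Slfn5, Slfn8 and Slfn9, against 3.99% of the 27025 genes in the table. In Slfn8 and Slfn9 the match was read on the opposite strand (TTTCGTTTTC). It lay 45 to 36 bases before the start of Slfn9, 48 to 39 bases before the first of 2 starts of Slfn8, and 155 to 146 bases before the start of Slfn5. The 3 upstream stretches follow, with the match in capitals, since the genes that carry it changed by unequal amounts.

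Slfn5, GRCm38.p6 chr11:82951922-82951981, plus strand: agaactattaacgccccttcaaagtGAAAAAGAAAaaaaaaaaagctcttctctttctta

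Slfn8, GRCm38.p6 chr11:83020824-83020883, minus strand: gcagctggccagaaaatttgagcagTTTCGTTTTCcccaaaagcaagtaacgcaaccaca

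Slfn9, GRCm38.p6 chr11:82991841-82991900, minus strand: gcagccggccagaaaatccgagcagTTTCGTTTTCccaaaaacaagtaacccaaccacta

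The longest run shared by the 250 upstream bases of Slfn8 and Slfn9 was 20 bases, the longest of all pairs of members, followed by 15 bases for Slfn1 and Slfn4. No match to TTCNNNGAA, the gamma-activated site, was found in the 7 genes' promoters, against 8.3% of all promoters. A match or its absence in these windows is a description of the letters and says nothing of binding.

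The arrays differed in how many spots rose above background. Red spots well above background made up 37.6% on sham 5 to 62.1% on sham 1, and 45.8% on PPE 5 to 65.8% on PPE 1, and no spot was saturated. The slides, numbered from the file headers, held sham 1, PPE 1 and PPE 2 on 1 slide, sham 2, sham 3, PPE 3 and PPE 4 on another, and 1 array on each of 3 others. Smooth muscle identity was present in both groups: Acta2, the alpha-actin of smooth muscle, had a level of 4.30 in sham and 1.81 in PPE, and Myh11, its myosin heavy chain, 4.59 and 3.85.

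The question was which Schlafen transcripts differed between aneurysmal and sham aorta, and by how much. Slfn2, Slfn8 A_55_P2117656 and both Slfn9 probes were above background on all 10 arrays, and of these 4 probes, 2 were higher in PPE (Slfn2 and Slfn8) and both Slfn9 probes did not pass the test (limma, Benjamini-Hochberg over 30836 tested probes, adjusted p under 0.01). Over all tested probes 12.8% were higher and 9.15% lower. Slfn1, Slfn3 and Slfn5 passed as well, as 5 of the 7 tested probes other than that of Slfn4, and none was lower. These 3 genes were above background on all 5 PPE arrays but on 2 or fewer sham arrays, so they entered the test through the group in which they were high and had to differ, and the count of 5 carries no weight of its own. The groups did not overlap for Slfn2 and Slfn8 A_55_P2117656, nor for 23.9% of all tested probes. They did not overlap for Slfn1, Slfn3 and Slfn5 either, which carries no weight of its own for the same reason. With each array centred on its median in place of loess, which moved the median difference of all tested probes from 0.01 to 0.34, Slfn2, Slfn3 and Slfn8 passed, and Slfn1 (2.07, limma adjusted p = 0.0485) and Slfn5 (0.65, limma adjusted p = 0.0749) did not.

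**Figure D1:**
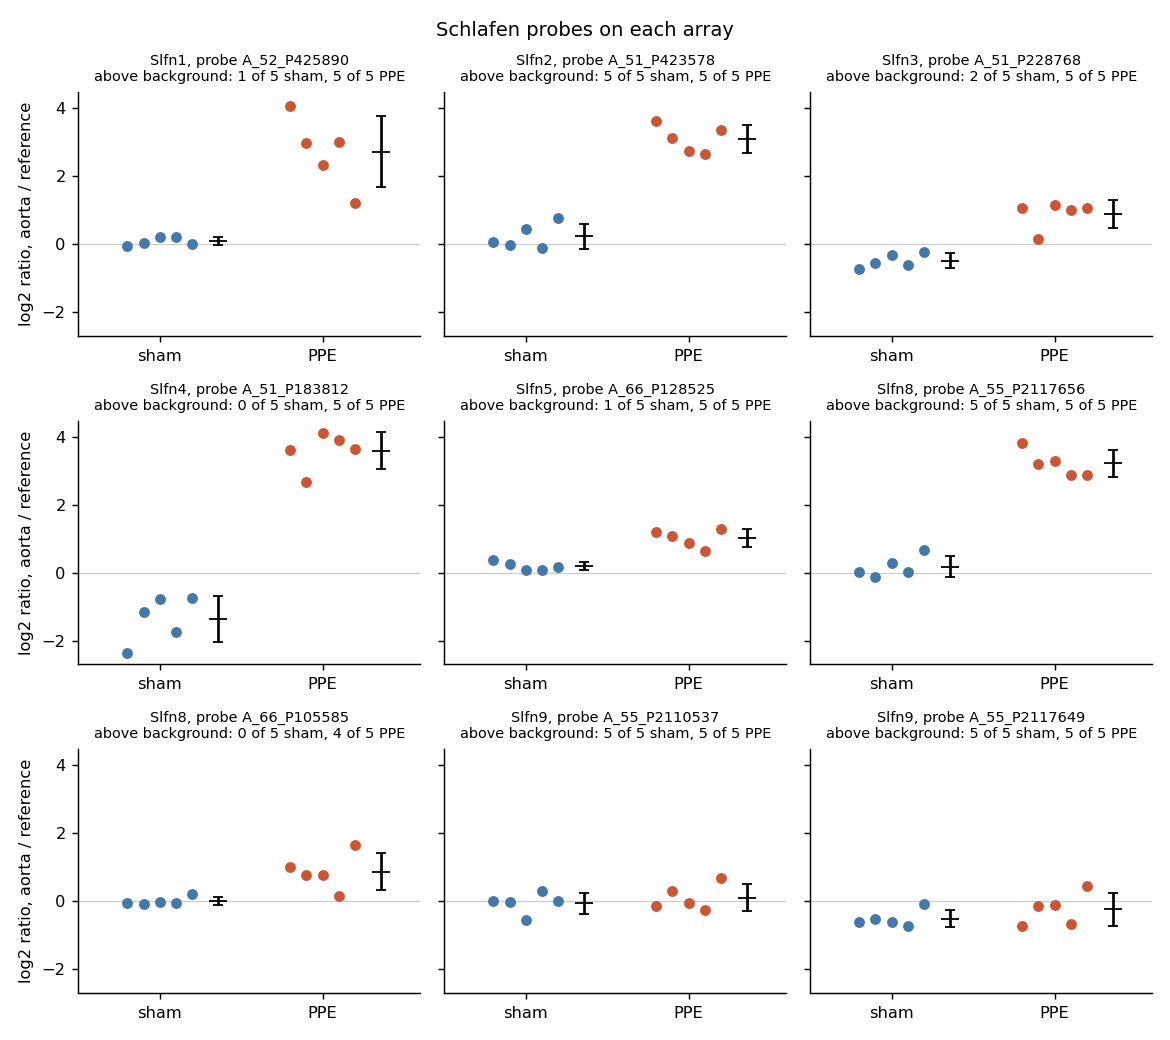
Log2 ratio of aorta over reference (vertical axis) for the 9 Schlafen probes on the 5 sham (blue) and 5 PPE (orange) arrays, in the order of replicate number, with the mean and SD of each group in black beside the points. The groups are apart for Slfn1, Slfn2, Slfn3, Slfn4, Slfn5 and Slfn8 A_55_P2117656 and overlap for the other Slfn8 probe and both Slfn9 probes.

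Slfn4, an intermediate member known from activated macrophages and other myeloid cells, was the gene the family was picked for. Its level on sham 1 to 5 was -2.37, -1.17, -0.79, -1.73 and -0.76, and on PPE 1 to 5 it was 3.61, 2.67, 4.13, 3.91 and 3.66. The sham spots were not above background on any array, while all 5 PPE spots and all 10 reference spots were. The measured means were -1.36 ± 0.69 in sham and 3.60 ± 0.56 in PPE (SD, n = 5 each), a difference of 4.96. Because no sham spot was above background, a fold was computed on the red channel after loess and between-array scaling. A sham value below the dimmest above-background probe of its array was raised to that probe. The fold was 23.3, against 24.4 without this step. Where the red channel was scaled alone, the folds were 18.5 and 22.3. They rest on sham spots that were not above background, and none is a strict lower limit. The difference depended on the processing, and was 6.72 with no offset in the background correction and 8.36 in the authors' own log ratios.

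Slfn3, the other intermediate member, has been studied in T cells and in the intestinal epithelium. Its level on sham 1 to 5 was -0.73, -0.55, -0.31, -0.62 and -0.22, and on PPE 1 to 5 it was 1.07, 0.16, 1.16, 1.003 and 1.08. The groups did not overlap, and PPE 2 lay apart from the other PPE arrays, which were within 0.16 of each other. The difference was 1.38 (SE 0.19, limma adjusted p = 0.0002062), and it was 1.56 without PPE 2. On PPE 2 the smooth muscle markers described below had their highest mean of the PPE arrays, 2.85 against 1.90 on the next, and the part of this in the Slfn3 level was not tested. It was 3.59 in the authors' log ratios. The Slfn3 spot was above background on 2 sham arrays.

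Slfn2, a short member known from mice in which its loss breaks the quiescence of T cells and monocytes, rose in PPE. Its level on sham 1 to 5 was 0.07, -0.03, 0.45, -0.10 and 0.77. On PPE 1 to 5 it was 3.63, 3.12, 2.74, 2.65 and 3.37. All 5 PPE arrays stood above all sham arrays, with 1.87 between the nearest arrays of the groups. The difference was 2.87 (SE 0.22, limma adjusted p = 3.578e-06), a 7.29-fold increase. It was 3.31 between 1 sham and 2 PPE arrays of the first slide and 2.48 between 2 and 2 arrays of the second.

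Slfn1, the other short member, is known to slow the growth of T cells when it is overexpressed. Its sham levels were close together, at -0.05, 0.04, 0.21, 0.21 and 0.02. Its PPE levels were the most spread of the family, at 4.06, 2.99, 2.34, 3.01 and 1.23. The lowest was on PPE 5, which was also the PPE array with the fewest red spots above background, and the part of this in the Slfn1 level was not tested. The difference was 2.64 (SE 0.40, limma adjusted p = 0.0003697), or 3.01 without PPE 5. The spot was above background on 1 sham array, and the difference was 4.07 in the authors' log ratios.

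Slfn8, a long member, had the largest difference among the tested Schlafen probes other than that of Slfn4 with the offset of 50 used here, while Slfn1 exceeded it with no offset (4.04 against 3.23). On sham 1 to 5 probe A_55_P2117656 had levels of 0.04, -0.12, 0.28, 0.03 and 0.68, and on PPE 1 to 5 of 3.82, 3.21, 3.30, 2.89 and 2.87. All 10 spots were above background and the groups were 2.20 apart at their nearest arrays. The difference was 3.04 (SE 0.20, limma adjusted p = 1.434e-06), an 8.24-fold increase, and it was 3.48 and 3.02 within the slides that held both groups.

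The other Slfn8 probe, A_66_P105585, refers to another RefSeq transcript of the gene and was dim. It was above background on 0 sham arrays and on 4 PPE arrays, too few to be tested. Its sham levels ran from -0.07 to 0.22, and its PPE levels were 1.01, 0.77, 0.77, 0.15 and 1.65. PPE 4, the array on which it was not above background, overlapped the sham range. The measured means were 0.00 and 0.87, and no fold is given, since 1 PPE spot was at background too. Both Slfn8 probes had the higher mean in PPE, by unequal measured amounts, and the difference between them was not tested.

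Slfn5, a long member studied as a nuclear regulator of interferon responses, had the smallest difference that passed. Its level on sham 1 to 5 was 0.36, 0.25, 0.09, 0.08 and 0.15, and on PPE 1 to 5 it was 1.21, 1.09, 0.87, 0.64 and 1.30. The groups were close but did not overlap, the nearest arrays being sham 1 and PPE 4. The difference was 0.84 (SE 0.14, limma adjusted p = 0.0005997), and 2.31 in the authors' log ratios. The sample was above background on 1 sham and 5 PPE arrays, and the reference on no array, so both channels were dim in sham.

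Slfn9, the long member beside Slfn8, did not pass the test with either probe. Probe A_55_P2110537 had levels of 0.01, -0.03, -0.56, 0.29 and 0.00 on sham 1 to 5 and of -0.15, 0.31, -0.05, -0.27 and 0.68 on PPE 1 to 5. Probe A_55_P2117649 ranged from -0.74 to -0.09 in sham and from -0.72 to 0.45 in PPE. The groups overlapped for both probes, although all spots were above background in both dyes. The differences were 0.16 (95% interval -0.28 to 0.61, limma adjusted p = 0.591) and 0.28 (-0.20 to 0.76, limma adjusted p = 0.375). Both probes carry the runs shown above that recur in promoters of other genes, and the part of this in their levels was not tested.

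**Figure D2:**
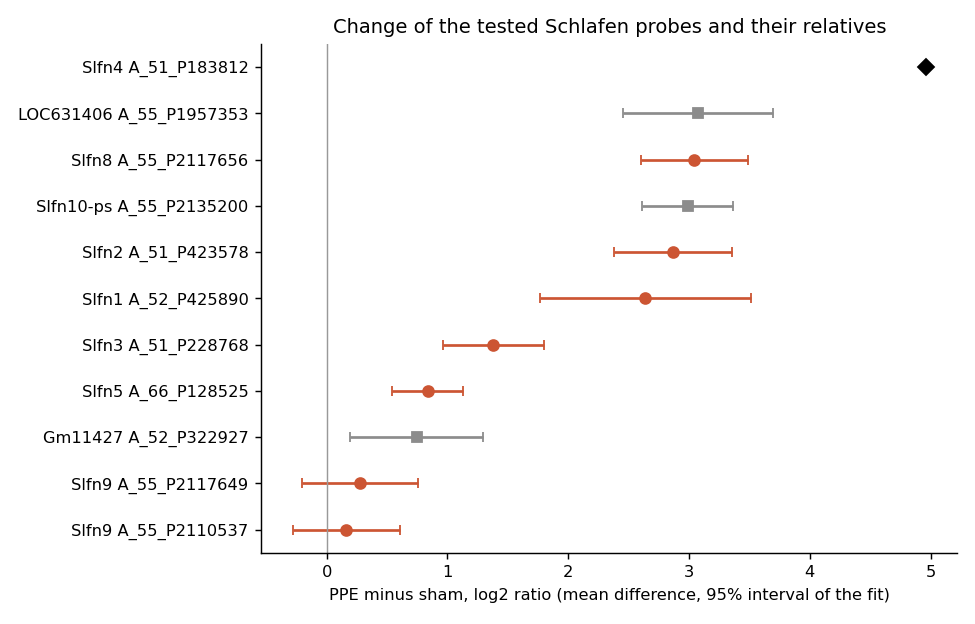
Difference PPE minus sham on the log2 scale (horizontal axis) for the tested Schlafen members (orange circles), Slfn4 (black diamond, the gene the family was picked for, with no interval) and tested probes of relatives that are no members (grey squares). Bars are 95% intervals of the fit over 10 arrays, and the intervals of both Slfn9 probes hold 0 while that of Slfn8 A_55_P2117656 runs from 2.60 to 3.49.

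Whether members changed by unequal amounts was tested on the difference between probes within each array, with Slfn4 left out (exact two-sided permutation test over all relabellings of the 10 arrays, smallest p 0.007937, Benjamini-Hochberg over 16 pairs). Of the pairs, 10 differed at an adjusted p under 0.05, and these included all 5 pairs of Slfn9 A_55_P2110537 with another gene. Slfn1, Slfn3 and Slfn5 entered the test through PPE, so no pair with any of them carries weight of its own. The probes used for Slfn2, Slfn8 and Slfn9 were above background on all 10 arrays. Of the pairs among these, Slfn9 with Slfn2 and Slfn9 with Slfn8 passed, and Slfn2 with Slfn8 did not. Slfn8 exceeded Slfn9 by 2.88 (exact adjusted p = 0.0212) and Slfn2 exceeded Slfn9 by 2.70 (exact adjusted p = 0.0212). Slfn8 also exceeded Slfn5 by 2.21 and Slfn3 by 1.66, and Slfn2 exceeded them by 2.03 and 1.49 (exact adjusted p = 0.0212 for each). These pairs hold Slfn3 or Slfn5, which entered through PPE, and none of them passed in the authors' log ratios. Among Slfn1, Slfn2 and Slfn8, none of 3 pairs passed, the larger change exceeding the smaller by 0.18 to 0.40, but Slfn1 changed less than Slfn2 and Slfn8 under median centring (Slfn1 minus Slfn2 -1.13, exact adjusted p = 0.0423, and Slfn1 minus Slfn8 -1.13, exact adjusted p = 0.0318). The other pairs that did not pass were Slfn1 with Slfn3, Slfn3 with Slfn5, and the 2 Slfn9 probes with each other.

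In the authors' log ratios, which carry no offset, 4 of the 16 pairs passed, and these were Slfn9 with Slfn2, Slfn3, Slfn5 and Slfn8. There the differences of Slfn1, Slfn3 and Slfn5 were 4.07, 3.59 and 2.31, against 2.82 for Slfn2 and 3.13 for Slfn8. Slfn1 and Slfn3 then ranked above Slfn2 and Slfn8, while Slfn5 stayed below them. Slfn3 exceeded Slfn8 (by 0.46) and Slfn2 (Slfn2 minus Slfn3 -0.77), the opposite direction, without passing. With no offset in the background correction, Slfn1 (4.04) ranked above Slfn2 (2.90) and Slfn8 (3.23), but Slfn3 (2.35) did not. The cause of these shifts was not tested. With median centring 9 pairs passed, and of the 5 pairs with Slfn9 only those of Slfn2 and Slfn8 did, while Slfn1 (1.45, exact adjusted p = 0.0693), Slfn3 (0.65, exact adjusted p = 0.244) and Slfn5 (0.03, exact adjusted p = 0.965) did not differ from Slfn9 past the threshold.

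Other names that start with Slfn, and gene models described as similar to a Schlafen gene, were on the array as close paralogs. Slfn10-ps, a member annotated as a pseudogene, had levels from -1.27 to -0.52 in sham and from 1.64 to 2.42 in PPE, a difference of 2.99 (SE 0.17, limma adjusted p = 6.234e-07). Its probe lies between those of Slfn8 and Slfn2. LOC631406, a model similar to Slfn8 with no position in the files, rose by 3.08 (limma adjusted p = 1.1e-05). The longest run its probe shared with the tested Slfn8 probe was 8 bases.

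Gm11427, a model similar to Slfn4 and beyond Slfn3 on the chromosome, differed by 0.75 (SE 0.25, limma adjusted p = 0.0398), which did not pass, and its groups overlapped. Its probe shared at most 9 bases with that of Slfn4. LOC640793, a model similar to Slfn9, was above background on 0 sham and 4 PPE arrays and was not tested, with measured means of -0.37 and 0.36. Slfn14-ps, in the same cluster, and Slfnl1, on chromosome 4, were above background on no array.

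The genes beside the cluster were read from the same fit, up to 500 kb on either side. Of 30 tested probes whose gene name does not start with Slfn, 9 were higher and 2 were lower. Their median difference was 0.27, against 0.01 over all tested probes. They include Gm11427, the model similar to Slfn4. All 5 chemokine probes there, of Ccl3, Ccl4, Ccl5, Ccl6 and Ccl9, were among the higher, and they were named after their values were seen. Of the other 25 probes, 4 were higher and 2 were lower, with a median of 0.21, near the shares of 12.8% and 9.15% over all tested probes. Before Slfn5, the nearest tested genes LOC100047131, Unc45b and Gm12575 had differences of 0.32, 0.21 and 0.27 that did not pass. After Slfn3, AI662270, at 9.6 kb, was higher by 1.62 (SE 0.21, limma adjusted p = 0.0001355). With median centring 3 of the 30 probes were higher, against 409 of all 30836 tested probes.

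**Figure D3:**
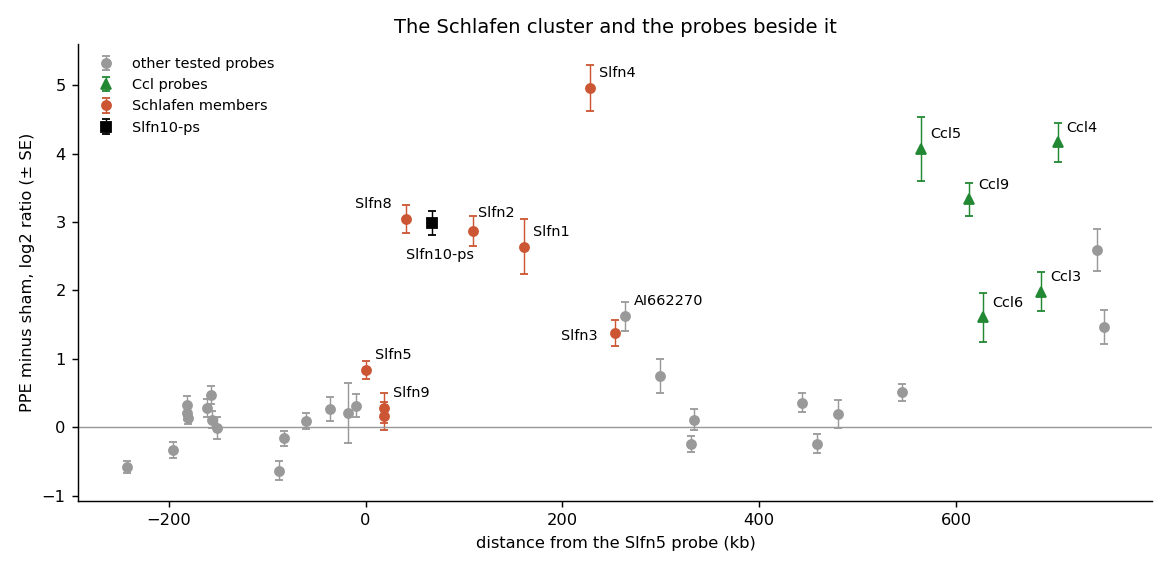
Difference PPE minus sham on the log2 scale with its SE (vertical axis) against distance in kb from the Slfn5 probe (horizontal axis), for Schlafen members (orange), Slfn10-ps (black square), Ccl probes (green triangles) and other tested probes (grey). Slfn8, Slfn10-ps, Slfn2 and Slfn1 lie between 2.64 and 3.04, Slfn4 at 4.96, and the Slfn9 probes near 0 between Slfn5 and Slfn8.

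Since Schlafen genes are interferon-inducible, the interferon pathway was read by role. Of 62 listed genes, 60 were tested, 52 were higher and none lower, with a median difference of 2.05. Over all tested probes, 12.8% were higher and 9.15% lower. All 30 target genes passed, and the 5 with the largest differences were Cxcl10 (5.53), Oas1a (4.21), Mx1 (3.83), Oas2 (3.33) and Oasl2 (3.29). With the offset used here, the Slfn8, Slfn2 and Slfn1 differences of 2.64 to 3.04 lay near the median of the targets, 2.77. Those of Slfn3, Slfn5 and Slfn9 lay below it. The values of the dim Slfn1 and Slfn3 probes depended on the processing. Slfn1 was 4.04 with no offset and 4.07 in the authors' log ratios, and Slfn3 was 2.35 and 3.59. Slfn2 and Slfn8 ran from 2.82 to 3.23 there, and no median of the targets is given for these settings. The comparison with the targets is one of differences, not of levels, and no test was made of it. With median centring 20 of the 60 genes were higher, against 409 of all 30836 tested probes.

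Of the transcription factors, Stat2 (2.25) and Irf9 (1.24), which act at response elements, and Irf1 (2.05), Irf7 (3.05) and Irf8 (2.43) were higher. Of the receptor chains, Ifnar1 (1.39), Ifnar2 (0.94), Ifngr1 (1.36) and Ifngr2 (0.75) were higher, and Il28ra (0.35) did not pass. Of the kinases, Jak1 (1.28) and Jak2 (1.40) were higher, and Tyk2 (0.48, limma adjusted p = 0.0133) did not pass. Of 4 tested ligands, 1 passed: Ifng, the type II interferon made by T cells and natural killer cells, was higher by 2.82 and above background on 1 sham and 5 PPE arrays. Ifng entered the test through PPE, as Slfn1 did, so its passing carries no weight of its own. Ifnb1 was above background on 2 PPE arrays and Ifna4 on none.

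**Figure D4:**
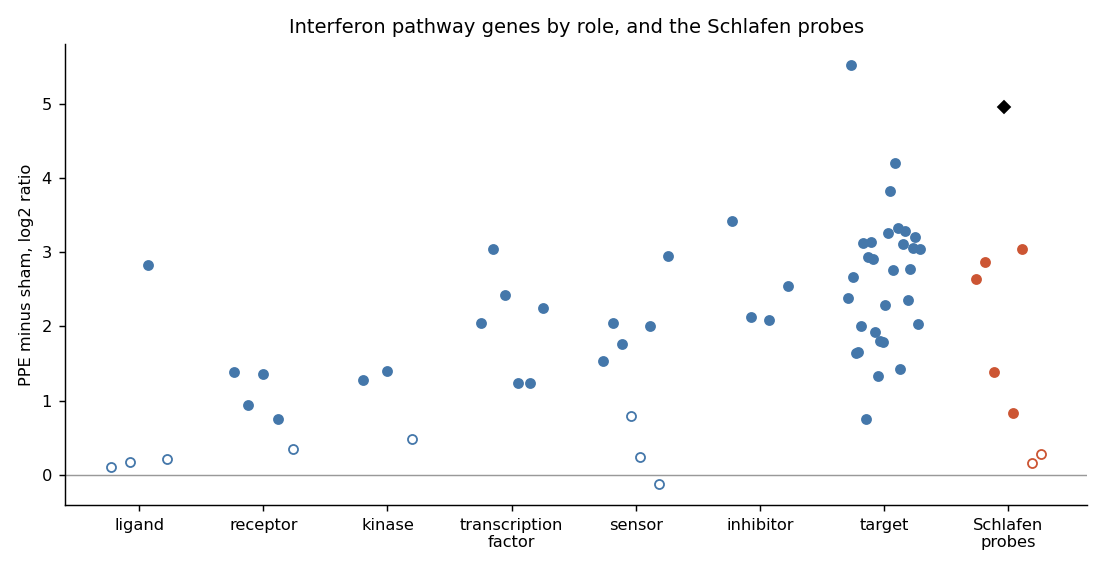
Difference PPE minus sham on the log2 scale (vertical axis) for the 60 tested interferon pathway genes by role (blue, 1 probe per gene) and the 8 tested Schlafen probes (orange, with Slfn4 as a black diamond). Filled points other than that of Slfn4 passed the limma test at an adjusted p under 0.01 and open points did not; all 30 targets are filled and both Slfn9 probes are open.

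Most tested markers of macrophages, neutrophils and T cells were also higher in PPE. Of 11 tested macrophage and monocyte markers 10 were higher, against 12.8% of all tested probes. Their median difference was 2.33. Over the 10 markers with a value on every array, the list's mean level ran from 0.77 to 1.23 on sham arrays and from 3.26 to 4.30 on PPE arrays. Emr1, which encodes the macrophage antigen F4/80, was higher by 3.42. Of 10 neutrophil markers 9 were higher, with mean levels of 0.35 to 0.50 in sham and 2.60 to 4.16 in PPE, but 5 of the 9 (Il8rb, Ltf, Mmp8, Mpo and Ngp) were above background on 5 PPE and at most 1 sham array and entered the test through PPE. S100a8, a calcium-binding protein of neutrophils and monocytes, was above background on all 10 arrays and higher by 5.53. Of 10 T cell markers 7 were higher, with mean levels of -1.34 to -0.02 in sham and 0.66 to 1.69 in PPE, while Cd3e differed by 0.94 (limma adjusted p = 0.0126), which did not pass.

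The other lists moved less or the other way. Of 5 tested B cell markers 1 was higher, with mean levels of -1.09 to 0.24 in sham and -0.74 to 1.28 in PPE, and Cd79a, above background on 4 sham and 2 PPE arrays, did not pass. None of 6 endothelial markers passed, with mean levels of 2.21 to 3.21 in sham and 2.32 to 3.37 in PPE, and Pecam1 differed by -0.36. Of 8 smooth muscle markers 6 were lower, against 9.15% of all tested probes. Their median was -1.84, with mean levels of 3.22 to 4.39 in sham and 1.62 to 2.85 in PPE. Over the 36 tested leukocyte markers 27 were higher, against 12.8% of all tested probes. The 27 include the neutrophil markers named above that entered the test through PPE, so this count carries no weight of its own. With median centring 10 of the 36 markers were higher, against 409 of all 30836 tested probes. The part of these cell types in the Schlafen differences was not tested.

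**Figure D5:**
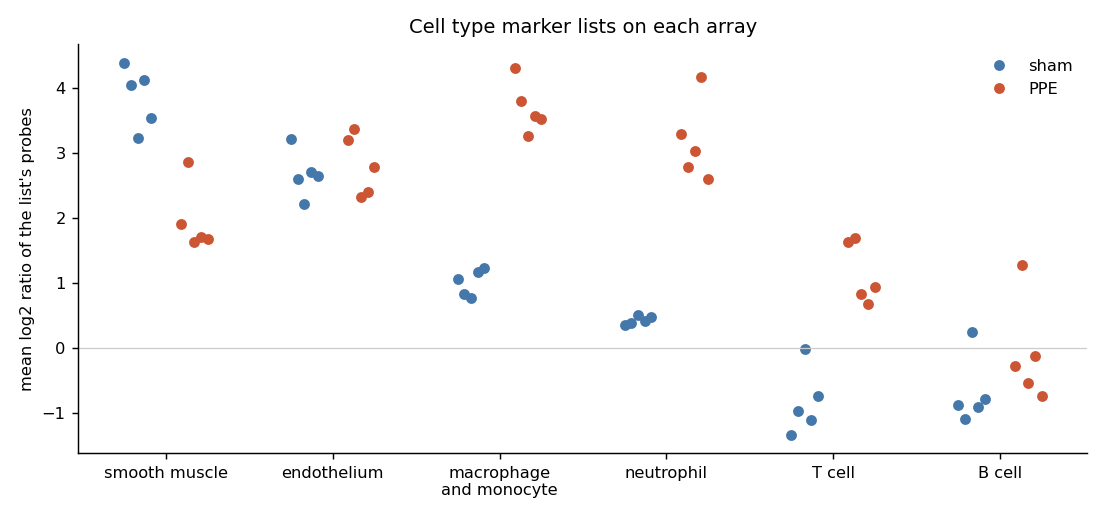
Mean log2 ratio of aorta over reference for each cell type marker list (vertical axis) on each sham (blue) and PPE (orange) array. Each mean is over the list's tested probes with a value on every array. The macrophage and monocyte, neutrophil and T cell lists are higher on all 5 PPE arrays than on all 5 sham arrays, the smooth muscle list is lower, and the endothelial and B cell lists overlap.

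Genes whose pattern lay closest to that of Slfn4 were found by the mean absolute distance over the 10 arrays, each probe taken as its log2 ratio minus its own sham mean, among 16108 genes with a median distance of 2.76. The 5 closest were Ctss, a cathepsin of antigen-presenting cells, at 0.35, Irg1, the itaconate-forming enzyme of activated macrophages, at 0.36, Cd300lf, a myeloid surface receptor, at 0.38, the chemokine Ccl4 at 0.46 and the cytokine Il6 at 0.47. The Il6 spot, like that of Slfn4, was above background on 0 sham and 5 PPE arrays. The nearest Schlafen gene was Slfn10-ps at 1.16, followed by Slfn8 at 1.18, Slfn2 at 1.22 and Slfn1 at 1.43. Slfn3 and Slfn5 were at 1.99 and 2.35, and Slfn9 was at 2.76. This distance follows the size of the difference, which chose Slfn4, and it carries no test.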

How the data were processed

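The members and gene lists were chosen with earlier results of these data known. Groups and replicate numbers came from the sample labels, 1 aorta per array, 5 sham and 5 PPE. Per the study's methods, the authors left out arrays of poor hybridization and outliers, and which ones is not stated. The authors extracted the 62976 spots of each array with Agilent Feature Extraction 10.7.3.1. The deposited spot signals are an intensity on a linear scale, and their deposited LogRatio column gives red over green on a log10 scale (converted to log2). The series matrix of the authors gives log2 values of the processed ratio.

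Mean signals and median local backgrounds were used in R 4.3.3 with limma 3.58.1: normexp with an offset of 50, then loess within each array, with control spots at weight 0 and outlier spots (176 to 331 per array) left out. The offset draws dim ratios towards 0. Probes whose red spot stood well above background on 5 or more of the 10 arrays were tested with lmFit and eBayes, two-sided, and Benjamini-Hochberg adjustment over 30836 probes at a threshold of 0.01. Lists took the brightest tested probe of each gene. All member probes were named, with every other Slfn name, the interferon ligands, receptors, kinases and transcription factors, the 5 targets of largest difference, the 3 nearest genes on each side, the 5 genes most like Slfn4 and 7 defining markers, apart from some genes not reported here; the Ccl genes, 5 neutrophil markers and the models similar to Schlafen genes were named after their values were seen. Gene symbols are those of the array's design, and 3 list genes were found under an older name. On simulated data with 30796 probes, limma recovered 92.5% of log2 changes of 2, 61.2% of 1 and 3.03% of 0.5, with 0 false calls. Only a small part of those probes was given a change, with independent noise, so these shares may not hold for the real arrays. Promoter sequences are RefSeq's, build GRCm38.p6, and all 7 genes matched. Protein sequences were not used here.

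Alternatives were other normalizations, background corrections, filters and tests (SAM, the authors' test), slide, scan day and replicate number as blocks, and leaving out arrays. Leaving out sham 5 and PPE 5 together was added after the data were seen.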

Additional observations from a re-analysis of the deposited data

Results flagged for a closer look

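Of 34 groups of 5 arrays examined, 4 held an array far from the rest (a gap over 0.71 of the group's range), and chance gives about 5% of groups. On PPE 2, Slfn3 was low, with a log2 ratio of 0.16 against 1.003 on the next array. On the same array the smooth muscle list was high, with a mean of 2.85 against 1.90. On sham 5, the dim Slfn8 probe A_66_P105585 was high at 0.22 against -0.02, and no sham spot of that probe was above background. On sham 3, the B cell list was high at 0.24 against -0.79.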

How the results depend on the processing

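The count of 5 Schlafen probes that were higher became 3 with median centring and 2 where signal above background was required on all 10 arrays, since only 4 of the 7 were then tested. With median centring the interferon list had 20 higher genes, the leukocyte lists 10 and the neighbourhood 3, and 409 of all probes were higher and 8 lower, against 3935 and 2822; the cause was not tested. SAM called 6058 higher and 4638 lower. In the authors' log ratios 4 pairs of members differed. Of the pairs that differed, Slfn3 with Slfn2 and with Slfn8 turned direction there without passing; none of the members' own differences between PPE and sham reversed. Leaving out each array in turn gave 5 to 5 Schlafen probes, 52 to 53 interferon genes and 26 to 29 leukocyte markers. It also gave 7 to 10 neighbouring probes and a Slfn4 fold of 21.1 to 26.9, with low sham values raised as above. Log2 differences then ran from 4.71 to 5.19 for Slfn4, 1.31 to 1.56 for Slfn3, 2.73 to 3.002 for Slfn2, 2.31 to 3.01 for Slfn1, 2.89 to 3.17 for Slfn8, 0.77 to 0.93 for Slfn5, and 0.02 to 0.26 and 0.11 to 0.40 for the Slfn9 probes, with no call changed. Without sham 5 and PPE 5, 5 Schlafen probes passed. Replicate numbers are shared between groups, but not all same-numbered arrays deviated together: over 30796 probes their correlations were 0.29, -0.29, 0.17, -0.14 and 0.52 for numbers 1 to 5, so the numbers were not taken as pairs. With the replicate block 5 Schlafen probes, 53 interferon genes, 28 leukocyte markers and 8 neighbouring probes were higher. Slide or scan day as a block left 5 Schlafen probes. For Slfn1, Slfn3, Slfn4 and Slfn5, signal near background in sham limits the size of the difference.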
